A study of Mus musculus with 12 samples.

Results

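The small nucleolar RNA (snoRNA) genes were taken as every symbol of the deposited count table that starts with Snord or Snora followed by a digit and whose counts summed to at least 50 over the 12 libraries. These were 91 of 24391 genes: 60 Snord genes, named for the C/D box class, and 31 Snora genes, named for the H/ACA box class. A further 14 Snord or Snora symbols lay below the minimum, 9 of them at 0 in every library. The nearest outside were Snord61 with 41 counts and Snord123 with 33, and the nearest inside were Snora34 with 69 and Snord67 with 82. The genes were thus chosen by their summed counts, and their overall levels are given as a description.

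Total RNA was sequenced from 4 female mouse embryonic stem cell (mESC) lines from a cross of C57BL/6J-129/SvJ and Mus musculus castaneus, all of which carry Rs26+/CreERT, a Cre recombinase at the Rosa26 locus that 4-hydroxytamoxifen (OHT) activates. Lines 5.3 and 5.16 are Rif1+/+ and are called WT. Lines 15.10 and 16.9 are Rif1F/F, with floxed Rif1 on both alleles, and are called F/F before OHT and KO after it. RIF1 binds chromatin and acts in the timing of DNA replication and in the repair of broken DNA. From each line came 1 library of untreated mESC, 1 of mESC given OHT for 2 days and 1 of embryoid bodies (EB) grown for 2 days from OHT-treated cells, so that 6 groups of 2 libraries were formed, and the WT cells received OHT as well. The mESC grew in serum with LIF and inhibitors of MEK and GSK3. Values below are given for line 5.3 and then 5.16, or for line 15.10 and then 16.9. Genotype and the pair of lines cannot be told apart, and the same holds for condition and flow cell, as the first part of a description label, which differs by condition, is read here. P-values measure the spread between lines, with 1 library a line and condition.

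snoRNAs are short nucleolar RNAs that bind a fixed set of proteins and guide them to ribosomal and spliceosomal RNA by base pairing. C/D box snoRNAs direct ribose methylation through fibrillarin (Fbl), and H/ACA box snoRNAs direct pseudouridylation through dyskerin (Dkc1). A few of them instead take part in cleavage of the ribosomal RNA precursor. In mammals most are released from introns of a host gene, often a ribosomal protein gene or a noncoding gene of the Snhg group, after that host has been transcribed and spliced.

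The 8 sequences shown first are those of members whose levels carry the comparisons: 6 C/D box and 2 H/ACA box RNAs, from GENCODE vM21 transcripts on GRCm38. Capitals mark the C box (TGATGA) within the first 25 bases and the D box (CTGA) within the last 25 bases of C/D box RNAs, or the ACA triplet within the last 25 bases of H/ACA box RNAs. They are written with T in place of U, 5′ to 3′.
Snord47: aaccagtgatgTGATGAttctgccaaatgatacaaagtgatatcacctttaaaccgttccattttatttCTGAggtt
Snord64: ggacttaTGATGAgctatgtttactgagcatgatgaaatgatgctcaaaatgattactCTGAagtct
Snord72: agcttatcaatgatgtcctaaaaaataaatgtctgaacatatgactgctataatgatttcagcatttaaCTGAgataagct
Snord104: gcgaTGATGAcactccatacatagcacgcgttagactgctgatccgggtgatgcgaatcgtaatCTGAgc
Snord49a: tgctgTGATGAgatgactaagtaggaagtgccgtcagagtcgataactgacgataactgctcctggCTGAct
Snord49b: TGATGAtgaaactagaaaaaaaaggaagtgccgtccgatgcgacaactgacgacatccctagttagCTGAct
Snora78: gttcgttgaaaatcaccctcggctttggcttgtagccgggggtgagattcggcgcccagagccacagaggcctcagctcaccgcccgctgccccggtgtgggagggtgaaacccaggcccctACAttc
Snora17: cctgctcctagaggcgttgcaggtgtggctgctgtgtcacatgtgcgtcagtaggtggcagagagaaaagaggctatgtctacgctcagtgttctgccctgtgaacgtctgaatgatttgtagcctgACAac

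Snord47 lies on chromosome 1 within Gas5, Snord64 on chromosome 7 within Snhg14 and Snord72 on chromosome 15 within Rpl37. Snord49a and Snord49b lie on chromosome 11 within the noncoding gene 2410006H16Rik. For Snord104, also on chromosome 11, no annotated host was found among the genes of the deposited counts. Snora78 lies on chromosome 17 within Snhg9 and Snora17 on chromosome 2 within Snhg7. Snord72, Snord49a, Snord49b and Snora78 overlapped no exon of their host's annotated transcripts, whereas Snord47 overlapped an exon in 1 of the 18 Gas5 transcripts that span it. The annotation's build differs from mm9, the build named in the submitters' processing notes, so no coordinates are given. Snord72 was the shown C/D box RNA without an exact TGATGA in its first 25 bases.

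Over the whole set, the D box letters CTGA stood in the last 25 bases of 58 of 59 C/D box members with a sequence (98.3%) and of 4 of 31 H/ACA box members (12.9%). TGATGA stood in the first 25 bases of 37 C/D box members (62.7%) and of 0 H/ACA box members. ACA stood in the last 25 bases of 29 H/ACA box members (93.5%) and of 19 C/D box members (32.2%), a share that shows how often so short a word falls in such a window. These searches read the given strand alone and describe letters, not binding. C/D box members were 64 to 238 bases long with a median of 78, and H/ACA box members 127 to 196 bases with a median of 133. A host was found for 90 of the 91 members, in 65 genes: 70 members lay in protein-coding hosts, 31 of these in 22 ribosomal protein genes, and 20 lay in noncoding hosts. The members therefore are not independent of each other, since 19 hosts held at least 2 of them.

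Counts per library summed to between 28600870 and 64808897, and levels are CPM, the counts scaled to library size with TMM factors. The targeted gene Rif1 stood at 1605 and 1455 CPM in WT mESC after OHT and at 702 and 661 CPM in KO mESC (log2 fold change -1.17, edgeR adjusted p = 4.4e-09), and it was already lower in F/F than in WT before OHT (-0.49, adjusted p = 7.4e-05). The WT mESC library of line 5.3 after OHT stood apart: the leucyl-tRNA synthetase gene Lars2 took 0.869% of its counts against 0.0147% to 0.140% in the others, its median histone gene stood at 10.3 CPM against 21.9 to 49.8, and its Rmrp at 1979 CPM against 3736 to 6940. For comparisons that use this library, the counts and the calls that change without it are given beside the results. Pou5f1 ranged from 631 to 973 CPM in all libraries, Nanog from 569 to 971 CPM in mESC and from 67.7 to 162 CPM in EB, and the epiblast gene Fgf5 stood at 0.0489 to 0.262 CPM in mESC and 39.9 to 67.5 CPM in EB. Of 8 feeder fibroblast markers, 4 to 5 per group were detected in both mESC libraries and 7 to 8 in EB, with a sum of 7.85 to 10.8 CPM in mESC and 17.3 to 20.8 CPM in EB, and Col3a1 and Dcn were at 0 in 6 libraries each. Their part in the results was not tested, and fewer cells of a type cannot be told apart from less RNA per cell.

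snoRNA reads were a small part of each library. The 91 members held 0.0442% to 0.0680% of all counts, and none was at 0 in any library. Reads of mature snoRNA and of the unspliced host intron that holds it cannot be told apart in these counts, and silica columns of the kind used for extraction retain short RNA poorly, so the levels are those of what the libraries captured. Mean CPM over the 12 libraries ran from 0.178 to 48.5 with a median of 1.51 for C/D box members, and from 0.150 to 71.7 with a median of 5.14 for H/ACA box members. Per kilobase of RNA the medians were 21.0 and 37.8 CPM per kb. In the fit across genes, the median average log2 CPM was 0.638 for C/D box and 2.39 for H/ACA box members, against 3.87 for all 17115 genes tested.

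Few members made up most of each class. Snord17, Snord22, Snord15b, Snord2 and Snord15a gave 49.1% of C/D box reads on the mean, and Snora74a, Snora78, Snora65, Snora43 and Snora17 gave 61.3% of H/ACA box reads. Snord22, a C/D box RNA shown in Xenopus to be needed for processing of the small-subunit ribosomal RNA, ranged from 17.1 to 39.9 CPM. Snord17 ranged from 30.6 CPM in F/F mESC of line 15.10 to 84.3 CPM in KO EB of the same line. Snora78 had the highest level per length at 555 CPM per kb, and Snora74a stood at 45.9 to 97.1 CPM.

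Summed C/D box levels were 223 ± 4.02 CPM in WT and 198 ± 5.06 CPM in F/F mESC before OHT, 249 ± 30.8 and 234 ± 19.1 CPM in WT and KO mESC after OHT, and 280 ± 21.3 and 288.5 ± 8.84 CPM in WT and KO EB (SD, n = 2 each). Summed H/ACA box levels were 267 ± 8.24 and 256 ± 3.83 CPM before OHT, 276 ± 10.8 and 314 ± 42.7 CPM after OHT, and 317 ± 44.3 and 358 ± 17.9 CPM in EB, in the same order. Both group means were highest in EB. The libraries of WT and KO overlapped in EB for both classes and after OHT for the C/D box class, and the H/ACA box libraries after OHT were set apart by under 0.1 CPM, 283.93 against 283.94. The sums follow the few abundant members: without Snora78 the H/ACA box sum ranged from 191 to 269 CPM instead of 254 to 371. They are descriptions, with no test.

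**Figure D1:**
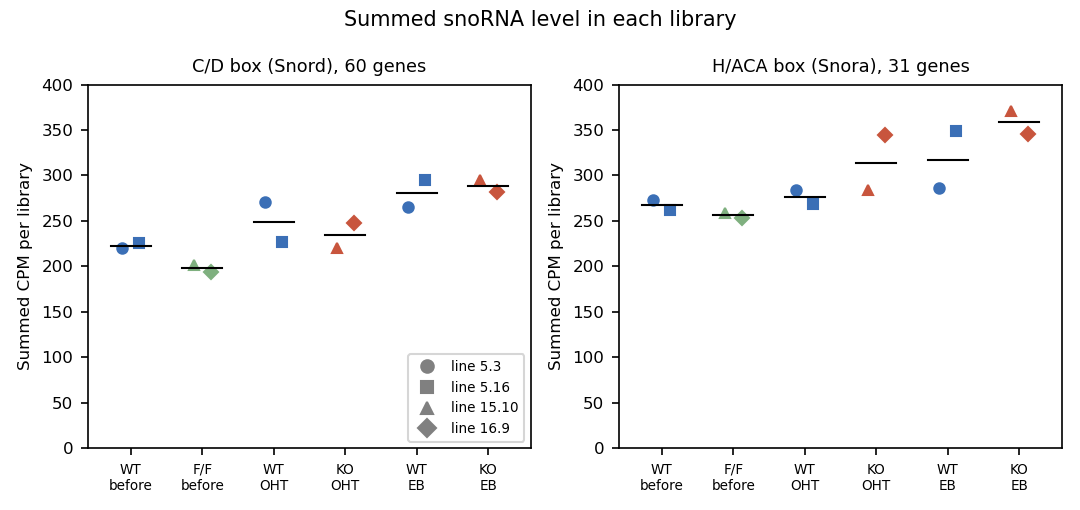
Summed CPM of the 60 C/D box and the 31 H/ACA box members in each of the 12 libraries, by group. Points are libraries, shaped by line, and horizontal lines are the means of 2. The C/D box sum runs from 194 to 296 CPM and the H/ACA box sum from 254 to 371 CPM, and the highest group means are those of EB.

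Before OHT, F/F and WT mESC, neither of which had received OHT, already differed in some members. Of 90 members tested, 1 was higher and 7 were lower in F/F, 8.89% in all against 37.4% of all genes tested (19.9% higher and 17.5% lower, edgeR quasi-likelihood test over all genes, adjusted p under 0.05). Snord12, a C/D box RNA within 1500012F01Rik, stood at 2.69 and 2.95 CPM in WT and 1.52 and 1.18 CPM in F/F. Its 2 F/F libraries lay below both WT libraries, with a log2 fold change of -1.06 (SE 0.24, adjusted p = 0.00209), close to the -1.03 of its host. Snord34, 1 of the 4 C/D box RNAs within the ribosomal protein gene Rpl13a, stood at 5.91 and 5.90 CPM in WT and at 9.44 and 9.50 CPM in F/F. It was called higher, by 0.68 (SE 0.12, adjusted p = 3.5e-04), while Rpl13a itself differed by -0.06 (adjusted p = 0.524).

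The other members called lower before OHT were Snord68 (log2 fold change -0.81), Snord65 (-0.79), Snord58b (-0.77), Snord49a (-0.67), the H/ACA box RNA Snora33 (-0.49) and Snord83b (-0.48), and each of their hosts was called lower too. With DESeq2 the calls of Snord68 (adjusted p = 0.0526) and Snord58b (0.0629) were lost. The median log2 fold change was -0.22 for C/D box members, -0.09 for H/ACA box members and -0.00 for all genes. Snord12 and Snord34 kept their calls in every fit that left out 1 library. The count fell to 4 without the WT library of line 5.16 and to 4 without the F/F library of line 16.9.

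After 2 days of OHT, 7 members were higher and 6 lower in KO mESC than in WT mESC, 14.4% of 90 against 38.4% of all genes tested (19.8% higher and 18.6% lower). Among C/D box members 5 were higher and 5 lower, and among H/ACA box members 2 were higher and 1 lower. With library totals in place of TMM scaling the split was 9 higher and 5 lower, and with no filter it was 7 higher and 12 lower. DESeq2 gave 6 higher and 5 lower, and a fit of only the groups compared gave 5 higher and 6 lower. With DESeq2-type size factors or upper-quartile factors it stayed at 7 higher and 6 lower. Without the WT library of line 5.3 that stood apart 9 were called, and the calls of Snord100 (-0.45, adjusted p = 0.0752), Snord42b (-0.67, 0.138), Snord49b and Snord55 were lost. Snord47, within the noncoding growth-arrest gene Gas5, showed the largest fall: it stood at 1.79 and 2.06 CPM in WT and at 0.562 and 0.585 CPM in KO. Both KO libraries lay below both WT libraries, and the log2 fold change was -1.74 (SE 0.32, adjusted p = 4.1e-04). Gas5 itself changed by -0.66 (adjusted p = 2.8e-05). Snord47 had 17 to 123 counts per library. Before OHT the same contrast gave -0.45 for Snord47 (adjusted p = 0.166), and the difference of the genotype effects was -1.28 (SE 0.41, adjusted p = 0.0646), which did not pass.

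The other members that were lower in KO mESC were Snord72 (-1.22, adjusted p = 0.0457), Snord93 (-1.06, adjusted p = 0.00834), Snora33 (-0.86, adjusted p = 1.1e-04), Snord42b (-0.77, adjusted p = 0.0293) and Snord100 (-0.62, adjusted p = 0.00550). Snora33 and Snord100 share the host Rps12, a ribosomal protein gene, which changed by -0.33 (adjusted p = 0.00473). Snora33 stood at 8.51 and 8.85 CPM in WT and at 4.63 and 4.90 CPM in KO, with no overlap. Snord72 stood at 0.836 and 1.19 CPM in WT and at 0.430 and 0.431 CPM in KO, again with no overlap, and its host Rpl37 was not called. The calls of Snord72 and Snord42b were lost with DESeq2 (adjusted p = 0.0681 and 0.104), and that of Snord72 was also lost without the WT library of line 5.16 (adjusted p = 0.165) and without either KO library (0.149 and 0.170).

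Among the members that were higher, Snora78, the most abundant H/ACA box RNA per length, stood at 22.6 and 62.3 CPM in WT and at 92.8 and 105 CPM in KO mESC. The low value is that of the WT library that stood apart. Both KO libraries lay above both WT libraries, with a log2 fold change of 1.23 (SE 0.29, adjusted p = 0.00265), and its host Snhg9 changed by 1.14 (adjusted p = 0.0152) from few counts. With 1 library left out at a time the value ran from 0.68 to 2.13, and the call was kept each time. Without the WT library of line 5.3 the log2 fold change was 0.68.

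Snord55 stood at 0.246 and 0.424 CPM in WT and at 0.860 and 0.585 CPM in KO mESC (1.12, SE 0.42, adjusted p = 0.0460). Its call rested on low counts, from 15 to 237 per library over the series, and was lost without the WT library of line 5.3 (0.77, adjusted p = 0.250) and without the KO library of line 15.10 (0.82, adjusted p = 0.282) or of line 16.9 (1.38, adjusted p = 0.0587). Snord49b stood at 2.67 and 3.82 CPM in WT and at 4.93 and 6.07 CPM in KO (0.77, SE 0.21, adjusted p = 0.00734). Snord104 stood at 4.87 and 4.97 CPM in WT and at 6.35 and 8.07 CPM in KO (0.55, SE 0.15, adjusted p = 0.00775). In all 3 the KO libraries lay above the WT libraries. The call of Snord49b was lost without the WT library of line 5.3 (adjusted p = 0.0750) and without the KO library of line 16.9 (0.0998), and that of Snord104 without the KO library of line 16.9 (0.37, adjusted p = 0.160).

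Snora44 (0.60, adjusted p = 0.0103) was higher although its host Snhg12 was lower by the same test (-0.31, adjusted p = 0.00740), and its call was lost without the KO library of line 16.9 (0.37, adjusted p = 0.207). Snord32a within Rpl13a (0.52, adjusted p = 0.00804) and Snord52 (0.45, adjusted p = 0.0403) were the remaining members called higher, and the Snord52 call was lost with DESeq2 (adjusted p = 0.0731). Snora78, Snord47, Snora33 and Snord32a kept their calls whichever library was left out, and the other 9 members lost theirs in at least 1 such fit. Of 58 replication-dependent histone genes tested, whose RNAs also lack poly(A) tails, 54 were higher in KO mESC. Their median log2 fold change was 1.11, and 0.63 without the WT library of line 5.3 that stood apart. The part of this shift in these results was not tested. The count of snoRNA members called was smaller without the KO library of line 16.9 or without the WT library of line 5.3. It was larger without the WT library of line 5.16, and most of the calls in that fit were lower in KO.

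**Figure D2:**
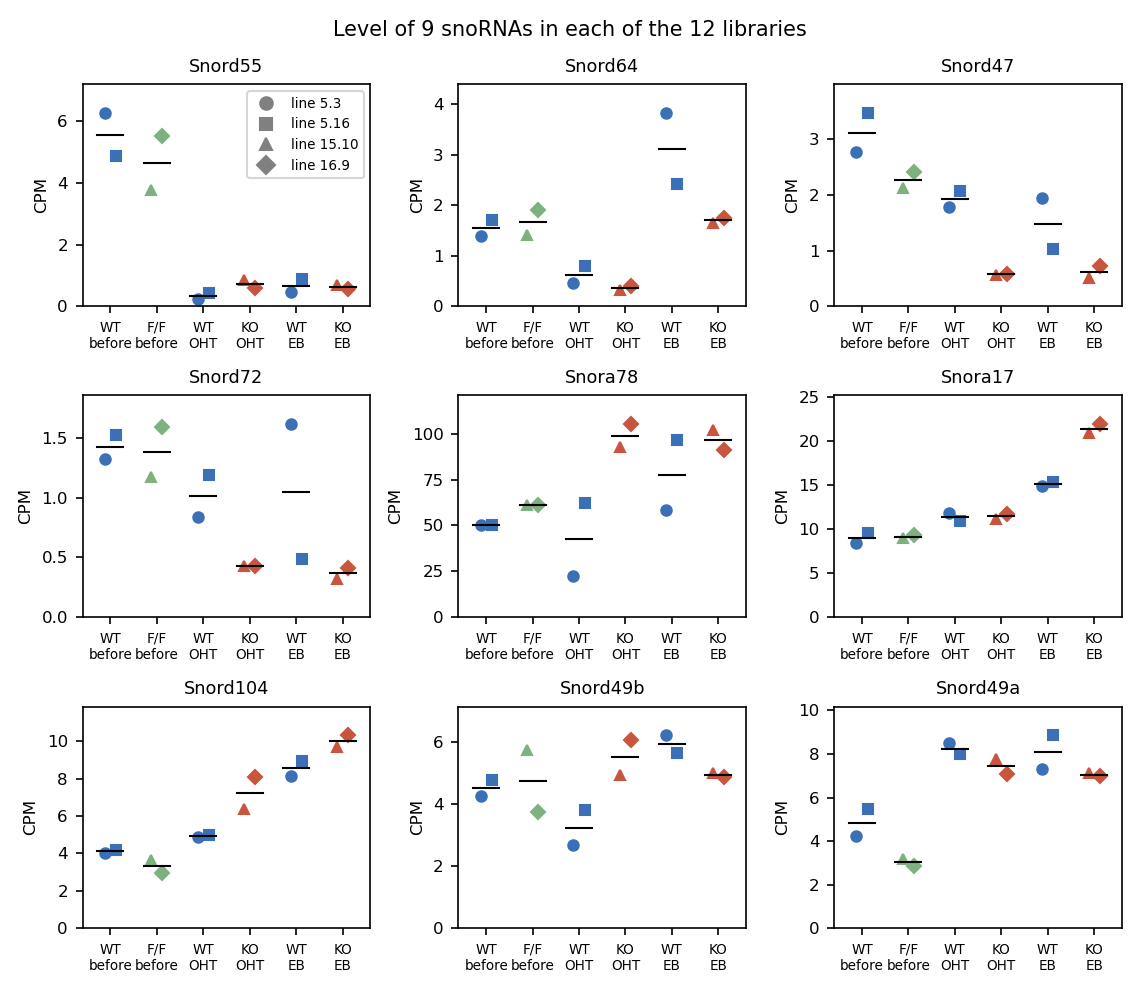
CPM per library of Snord55 and of the 8 members whose sequences are given, by group, on linear axes that start at 0. Points are libraries, shaped by line, and horizontal lines are the means of 2. Snord55 falls from between 3.76 and 6.25 CPM before OHT to under 1 CPM in all 8 libraries after it, Snord47 is at under 0.8 CPM in the 4 KO libraries, and Snora17 is highest in KO EB at 20.9 and 21.9 CPM.

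In EB, 6 members were higher and 10 lower in KO than in WT, 17.8% of 90 against 40.4% of all genes tested (20.7% higher and 19.7% lower). The classes split: the 7 C/D box members called were all lower, whereas 6 H/ACA box members were higher and 3 lower. No test compared the classes. The split of all members called moved with the scaling, to 7 higher and 8 lower with DESeq2-type size factors and to 7 higher and 5 lower with library totals alone. With no filter it was 10 higher and 10 lower, and with upper-quartile factors 5 higher and 12 lower. The DESeq2 test called 9 members, 6 higher and 3 lower, and a fit of only the 2 groups compared called 25, 11 higher and 14 lower. With library totals, 4 C/D box members were called, all lower. The median log2 fold change was -0.18 for C/D box members, 0.04 for H/ACA box members and -0.02 for all genes. Among 58 replication-dependent histone genes tested, 18 were higher and 0 lower in KO EB (median 0.08). Their part in these results was not tested.

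Snora17, an H/ACA box RNA within Snhg7, stood at 14.9 and 15.4 CPM in WT EB and at 20.9 and 21.9 CPM in KO EB. The groups lay well apart, with a log2 fold change of 0.50 (SE 0.10, adjusted p = 9.5e-04), and Snhg7 itself changed by 0.77 (adjusted p = 1.2e-05). It was the call that held in every fit that left out 1 library, at 0.47 to 0.53. Snora43, the other member within Snhg7, changed by 0.39 (adjusted p = 0.0415), a call lost without the WT library of line 5.3 (0.19, adjusted p = 0.376), without the KO library of line 15.10 (0.32, 0.213) and without that of line 16.9 (0.45, 0.0764). Snora7a within the ribosomal protein gene Rpl32 stood at 7.09 and 11.4 CPM in WT and 16.5 and 13.5 CPM in KO (0.70, SE 0.18, adjusted p = 0.00534), while Rpl32 changed by 0.02 (adjusted p = 0.797). Its call was lost without the WT library of line 5.3 (0.42, adjusted p = 0.0856) and without the KO library of line 15.10 (0.54, adjusted p = 0.0824). Snora61 (0.49), Snora70 (0.49) and Snora68 (0.45) were the other H/ACA box members called higher.

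Snord47 stood at 1.94 and 1.03 CPM in WT EB and at 0.507 and 0.721 CPM in KO EB (-1.27, SE 0.34, adjusted p = 0.00600), so that the KO libraries lay below the WT libraries in EB as they did in mESC. Snord72 stood at 1.61 and 0.490 CPM in WT and at 0.320 and 0.412 CPM in KO (-1.48, SE 0.49, adjusted p = 0.0234), and here the WT library of line 5.16 lay close to KO. Without the WT library of line 5.3 neither was called (Snord47 -0.75, adjusted p = 0.127, and Snord72 -0.42, adjusted p = 0.564). Without the KO library of line 15.10 the adjusted p was 0.0868 for Snord47 and 0.149 for Snord72, and without that of line 16.9 it was 0.0633 for Snord72. Snord64, a C/D box RNA of the imprinted Prader-Willi and Angelman region, stood at 3.82 and 2.43 CPM in WT and at 1.65 and 1.75 CPM in KO (-0.87, SE 0.28, adjusted p = 0.0189), with no overlap, and its host Snhg14 changed by -0.61 (adjusted p = 7.7e-04). Its call was lost with DESeq2 (adjusted p = 0.0619), without the WT library of line 5.3 (-0.50, 0.262) and without the KO library of line 15.10 (-0.83, 0.109) or 16.9 (-0.90, 0.0718).

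Snora28 (-0.68), Snord58b (-0.72), Snord99 (-0.61), Snord100 (-0.48), Snora33 (-0.47), Snord43 (-0.41) and Snora16a (-0.39) were the other members called lower in KO EB. Of these 7, Snora33 alone kept its call with DESeq2, and the adjusted p of the others ran from 0.0597 for Snora28 to 0.135 for Snord58b. Snord58b was also not called with DESeq2-type size factors in edgeR (0.0520) or with library totals (0.0866). Few of the EB calls held without the WT library of line 5.3, without the KO library of line 15.10 or without that of line 16.9. Without the WT library of line 5.16 the members called were in part other ones. Most of the calls in that fit were higher in KO, whereas most were lower with all libraries. Snord47, Snord72, Snora33 and Snord100 were called lower in KO both in mESC after OHT and in EB, 30.8% of the members called in mESC and 25% of those called in EB. Of all genes called in these comparisons, 39.5% and 37.6% were called in the same direction in both. The libraries of these comparisons are separate but come from the same 4 lines. Snora33 was also called lower in F/F before OHT.

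**Figure D3:**
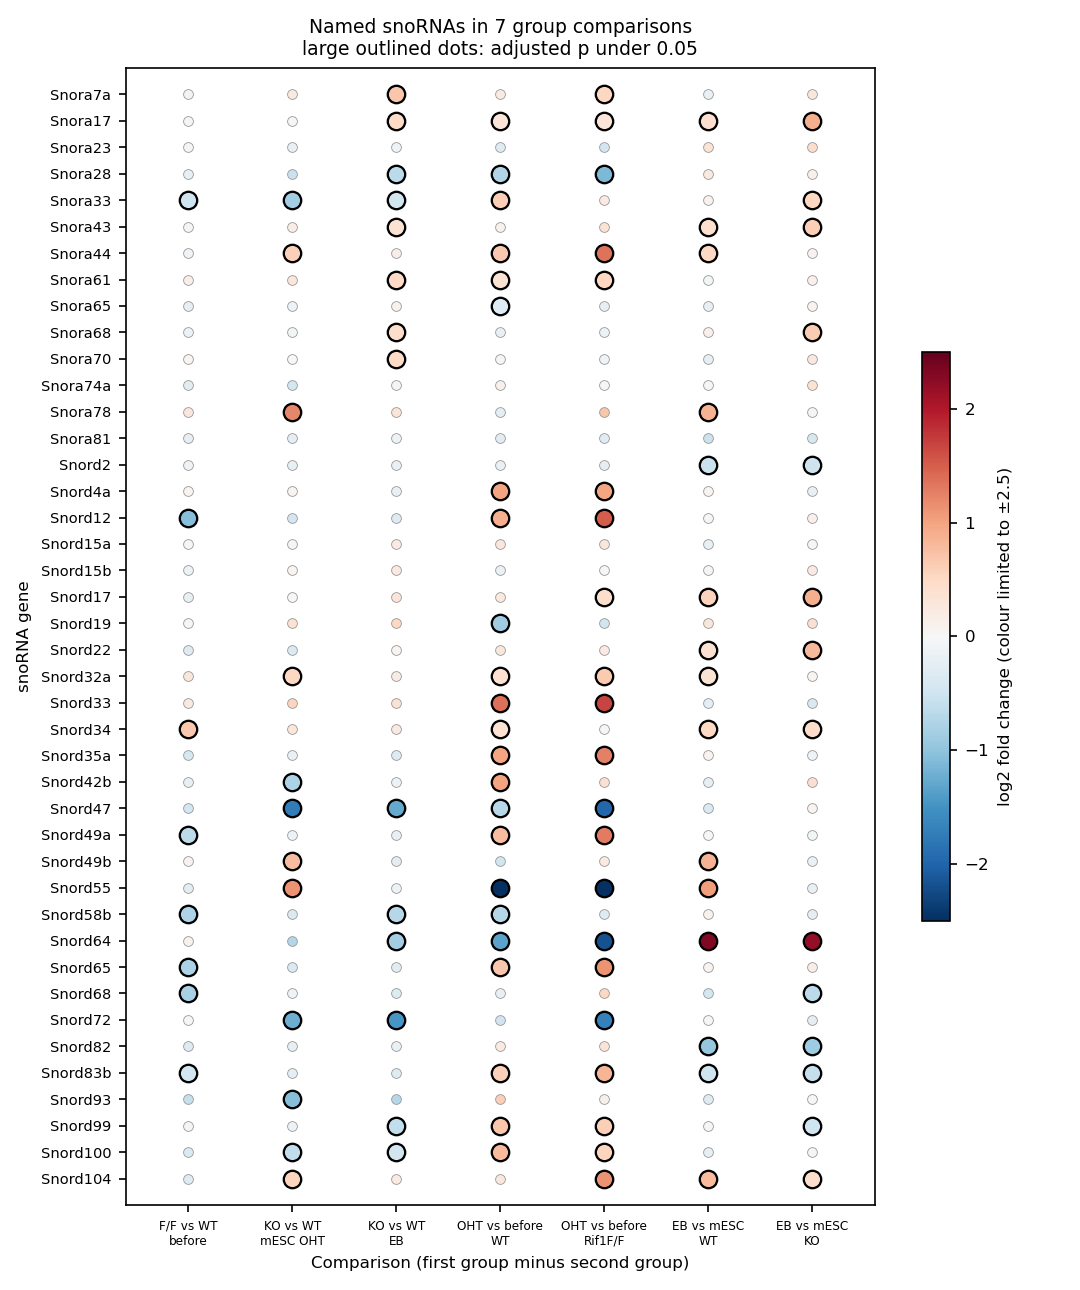
Log2 fold change, by colour, of the 42 members named by rule (rows) in the 7 comparisons between groups (columns), first group minus second. Large outlined dots passed the edgeR test over all genes at an adjusted p of 0.05. Snord47 and Snord72 have large blue dots for KO against WT in mESC after OHT (-1.74 and -1.22) and in EB (-1.27 and -1.48).

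The difference of the genotype effects was tested directly. At an unadjusted p under 0.05 the genotype effect after OHT differed from that before OHT for 8 of 90 members and 4227 of 17115 genes. At the adjusted threshold it differed for 1 of 90 members, against 7.86% of all genes tested (4.07% higher and 3.79% lower). That member was Snord104, whose difference was 0.87 (SE 0.22, adjusted p = 0.0256): in WT it stood at 4.04 and 4.19 CPM before and 4.87 and 4.97 CPM after OHT, and in Rif1F/F lines at 3.67 and 2.94 CPM before and 6.35 and 8.07 CPM after. With line as a replicate block 2 members were called. The call of Snord104 was lost without the WT library of line 5.3 before OHT (0.89, adjusted p = 0.0691), the F/F library of line 16.9 (0.72, 0.108) or the KO mESC library of line 16.9 (0.68, 0.141). For Snord55, Snora78 and Snord72 the differences were 1.38 (adjusted p = 0.0915), 0.94 (0.158) and -1.19 (0.229), which did not pass.

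Between EB and mESC after OHT the genotype effect differed for 2 of 90 members, against 28.6% of all genes tested (14.8% higher and 13.7% lower). At an unadjusted p under 0.05 it differed for 5 of 90 members and 6698 of 17115 genes. Snora17 differed by 0.48 (SE 0.15, adjusted p = 0.0207), from 11.8 and 10.9 CPM in WT and 11.2 and 11.7 CPM in KO mESC to the levels in EB given above. Snord49b differed by -1.03 (SE 0.29, adjusted p = 0.0138): it was higher in KO mESC, while in EB it stood at 6.21 and 5.64 CPM in WT and 4.99 and 4.87 CPM in KO. Snora17 lost its call in 7 of the 8 fits that left out 1 library, all but that without the WT mESC library of line 5.16, at adjusted p from 0.0502 to 0.0804. Snord49b lost its call without the WT mESC library of line 5.3 (-0.79, adjusted p = 0.0521) and without the KO mESC library of line 16.9 (-0.87, adjusted p = 0.0764). For Snord47 and Snord72 the genotype effects in EB and mESC differed by 0.47 (SE 0.48) and -0.26 (SE 0.70), within their error.

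Between mESC before and after OHT more members changed than between genotypes. In WT, 20 were higher and 10 lower after OHT, 33.3% of 90 against 49.1% of all genes tested (24.9% higher and 24.2% lower), and in Rif1F/F lines 18 were higher and 9 lower, 30% against 43.7% (22.1% higher and 21.5% lower). These 2 comparisons share no library, and 14 members were called higher and 6 lower in both, 66.7% of those called in WT and 74.1% of those called in Rif1F/F lines, with 0 in opposite directions. Of all genes called, 57.4% in WT and 64.6% in Rif1F/F lines were called in the same direction in both, which made 28.2% of the genes tested against 22.2% of the members. Calls in opposite directions were rare among all genes too, at 0.987% of those tested. OHT, time in culture and flow cell cannot be told apart here. Among 58 replication-dependent histone genes tested, 5 were higher and 24 lower after OHT in WT (median log2 fold change -0.41). Without the OHT library of line 5.3 that median was -0.07. In Rif1F/F lines 19 histone genes were higher and 3 lower (median 0.23). Their part in these results was not tested. With each library left out in turn, 14 of the 30 calls in WT and 16 of the 27 in Rif1F/F lines held every time. The count in WT was 19 without the library of line 5.3 before OHT and 25 without the OHT library of line 5.3 that stood apart. Without the latter the calls of Snora15, Snora17, Snora61, Snord32a, Snord35b, Snord47, Snord58b and Snord96a in WT were lost, at adjusted p from 0.0605 to 0.192.

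Snord55 had the largest change of any member. It stood at 6.25 and 4.86 CPM in WT and 3.76 and 5.52 CPM in F/F before OHT, and at 0.246 and 0.424 CPM in WT and 0.860 and 0.585 CPM in KO after it. All 4 libraries before OHT lay above all 4 after it. The log2 fold change was -4.07 in WT (SE 0.32, adjusted p = 1.5e-07) and -2.69 in Rif1F/F lines (SE 0.32, adjusted p = 5.4e-06), and ran from -4.48 to -3.69 and from -2.98 to -2.38 with 1 library left out. In EB Snord55 stood at 0.455 and 0.883 CPM in WT and 0.694 and 0.549 CPM in KO.

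Snord64 stood at 1.40 and 1.71 CPM in WT and 1.42 and 1.90 CPM in F/F before OHT, and at 0.459 and 0.790 CPM in WT and 0.331 and 0.401 CPM in KO mESC after it. The libraries before and after OHT did not overlap, with log2 fold changes of -1.33 (SE 0.32, adjusted p = 0.00230) and -2.17 (SE 0.38, adjusted p = 2.3e-04). Its host Snhg14 changed by -0.64 and -1.04. Snord70, within the C/D box protein gene Nop58, stood at 1.13 and 1.24 CPM in WT and 0.953 and 0.916 CPM in F/F before OHT and at 0.377 and 0.482 CPM in WT and 0.231 and 0.185 CPM in KO after it (-1.47, adjusted p = 0.00177, and -2.15, adjusted p = 7.9e-04), whereas Nop58 was called higher in both. Snord47 changed by -0.69 in WT and -1.98 in Rif1F/F lines, Snora28 by -0.76 and -1.12, and Snora15 by -0.84 and -1.49, all called. In WT the calls of Snord47 and Snora15 were lost with DESeq2 (adjusted p = 0.0940 and 0.132).

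Among the members that rose after OHT were 3 C/D box RNAs of Rpl13a, whose snoRNAs have been implicated in the response to lipotoxic stress in mouse. Snord33 stood at 0.396 and 0.422 CPM in WT and 0.538 and 0.434 CPM in F/F before OHT and at 1.08 and 1.06 CPM in WT and 1.69 and 1.45 CPM in KO after it (1.38, adjusted p = 0.00200, and 1.68, adjusted p = 3.8e-04). Snord35a rose by 0.98 and 1.26 and Snord32a by 0.41 and 0.65, all called, against 0.40 and 0.43 for Rpl13a. Snord34 was called higher in WT alone (0.38, adjusted p = 0.0170), and whether this differed from the Rif1F/F lines is the difference tested above, which called no Rpl13a member. The Snord32a and Snord34 calls in WT were lost with library totals (adjusted p = 0.0926 and 0.0747).

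Snord49a and Snord65 rose while their shared host 2410006H16Rik fell. Snord49a stood at 4.22 and 5.48 CPM in WT and 3.20 and 2.87 CPM in F/F before OHT and at 8.49 and 8.0 CPM in WT and 7.77 and 7.09 CPM in KO after it. All libraries after OHT lay above all before it, with log2 fold changes of 0.77 (SE 0.15, adjusted p = 5.5e-04) and 1.29 (SE 0.16, adjusted p = 1.2e-05), and the host changed by -1.28 and -0.76. Snord49b, within the same host, was called in neither. Snord12 rose by 0.91 and 1.52, Snora44 by 0.67 and 1.35, Snord4a by 1.00 and 0.99, Snord52 by 0.79 and 0.93 and Snord83b by 0.60 and 0.85 in WT and Rif1F/F lines, all called. Snord104 was called higher in the Rif1F/F lines (1.13, adjusted p = 3.6e-05).

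Between mESC after OHT and EB, 13 members were higher and 3 lower in WT EB, 17.8% of 90 against 62.3% of all genes tested (32.5% higher and 29.8% lower), and 13 were higher and 6 lower in KO EB, 21.1% against 59% (31.4% higher and 27.6% lower). In both genotypes 8 were called higher and 3 lower, 68.8% of those called in WT and 57.9% of those called in KO, with 0 in opposite directions. Of all genes called, 66.1% in WT and 69.7% in KO were called in the same direction in both, which made 41.2% of the genes tested against 12.2% of the members. Calls in opposite directions made 2.83% of all genes tested. With upper-quartile scaling the median of all genes in WT moved from 0.04 to 0.12. With each library left out in turn, 7 of the 16 calls in WT and 9 of the 19 in KO held every time. Without the WT mESC library of line 5.3 that stood apart 16 were called in WT, 11 of them called with all libraries, and Snora78, Snord2, Snord32a, Snord55 and Snord82 lost their calls. The count in KO was 12 without the mESC library of line 15.10 and 10 without its EB library. Flow cell and condition cannot be told apart, and of 5 feeder fibroblast markers tested 3 were higher and 1 lower in EB of each genotype. Of 58 replication-dependent histone genes tested, 54 were higher and 1 lower in WT EB and 17 were higher in KO EB. Their median log2 fold change in WT was 1.29, and 0.78 without the WT mESC library of line 5.3. The part of the feeder markers or of the histone genes in these results was not tested.

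Snord64 rose most in EB, to 3.82 and 2.43 CPM in WT and 1.65 and 1.75 CPM in KO from the mESC levels given above. Its log2 fold changes were 2.32 (SE 0.29, adjusted p = 2.5e-06) and 2.20 (SE 0.38, adjusted p = 9.4e-05), and those of Snhg14 were 1.86 and 1.59, so that its path over the 3 conditions, down after OHT and up in EB, was also that of its host. Snora47, an H/ACA box RNA within Zbed3, stood at 0.557 and 0.405 CPM in WT and 0.463 and 0.585 CPM in KO mESC and at 1.30 and 1.91 CPM in WT and 2.00 and 1.17 CPM in KO EB. All EB libraries lay above all mESC libraries after OHT (1.74, adjusted p = 3.2e-04, and 1.61, adjusted p = 0.00163), and Zbed3 changed by 1.57 and 0.97. The Snora47 call in KO was lost without the EB library of line 15.10 (1.14, adjusted p = 0.0537).

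The abundant members Snord17 and Snord22 were also higher in EB. Snord17, within Snx5, stood at 47.8 and 36.3 CPM in WT and 32.5 and 51.3 CPM in KO mESC after OHT, and at 60.5 and 64.4 CPM in WT and 84.3 and 71.8 CPM in KO EB (0.57, adjusted p = 0.00557, and 0.90, adjusted p = 1.6e-04). Snx5 changed by 0.74 and 0.75. Snord22, within Snhg1, changed by 0.40 (adjusted p = 0.0235) and 0.81 (adjusted p = 1.8e-04), although Snhg1 was called higher in KO alone. In WT, Snord17 lost its call without the mESC library of line 5.16 (0.38, adjusted p = 0.0603) and without the EB library of line 5.16 (0.49, 0.0537), and Snord22 lost its call without the same libraries (0.18, 0.283, and 0.12, 0.559). Snora17 rose by 0.42 and 0.90, Snora43 by 0.42 and 0.61, Snord34 by 0.52 and 0.48 and Snord104 by 0.80 and 0.46. Snord82 (-0.97 and -0.91), Snord83b (-0.51 and -0.60) and Snord2 (-0.55 and -0.52) were lower in both. Snord82 in WT lost its call without the mESC library of line 5.3 (-0.65, adjusted p = 0.0786). The Snord2 calls were lost with upper-quartile factors (adjusted p = 0.0571 and 0.0730), in KO also with library totals (0.0619), and in each genotype without single libraries, at adjusted p from 0.101 to 0.444.

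Snora78 rose in WT EB by 0.87 (SE 0.28, adjusted p = 0.0130), from 22.6 and 62.3 CPM in mESC to 58.4 and 96.3 CPM in EB, so that the groups overlapped. Its call was lost without the mESC library of line 5.3 that stood apart (0.28, adjusted p = 0.157), without the EB library of line 5.16 (0.43, 0.280) and with DESeq2 (0.0963). In KO it stood at 92.8 and 105 CPM in mESC and 102 and 91.1 CPM in EB, which overlap.

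The changes of members were set beside those of their hosts. Across 89 pairs of member and host in 65 hosts, which are not independent, Pearson's r of the log2 fold changes was 0.33 before OHT, 0.30 and 0.17 for KO against WT in mESC and EB, 0.05 and 0.16 for OHT in WT and Rif1F/F lines, and 0.59 and 0.61 for EB against mESC in WT and KO. Spearman's rho in the same order was 0.35, 0.35 and 0.27, 0.12 and 0.22, and 0.39 and 0.45. These are descriptions, and no test compared them. Of members called before OHT 7 of 8 had a host called in the same direction. For KO against WT this held for 6 of 12 in mESC, with 1 host opposite, and for 10 of 16 in EB, with 1 opposite. For OHT in WT 13 of 30 had a host called in the same direction and 8 in the opposite one, and in Rif1F/F lines 11 of 26 and 4. For EB against mESC it was 8 of 15 in WT, with 2 opposite, and 10 of 18 in KO, with 0 opposite. The median member had 2.39% as many reads as its host, and 34 members had under 1%.

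Members within 1 host could differ in direction. Within Snhg12, a noncoding host, KO against WT in EB gave 0.49 for Snora61 (adjusted p = 0.00688) and -0.61 for Snord99 (0.0193). It gave -0.39 for Snora16a (0.0437), while Snhg12 changed by -0.22 (0.0435). In edgeR the Snora16a call was lost with DESeq2-type size factors (adjusted p = 0.0513), library totals (0.0901) and no filter (0.0741). With DESeq2 the calls of Snora16a (0.134) and Snord99 (0.0637) were lost. The Snora61 call was lost without the WT library of line 5.3 (0.38, adjusted p = 0.0773) and the KO library of line 15.10 (0.35, 0.127). Snora78 and Snora74a had more reads than their hosts, 11700% of Snhg9 with 272 host counts in all and 343% of Snhg4. Whether reads that overlap a snoRNA and a host exon were given to either gene was not stated in the sources used here, and 37 members overlap an exon of some host transcript.

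**Figure D4:**
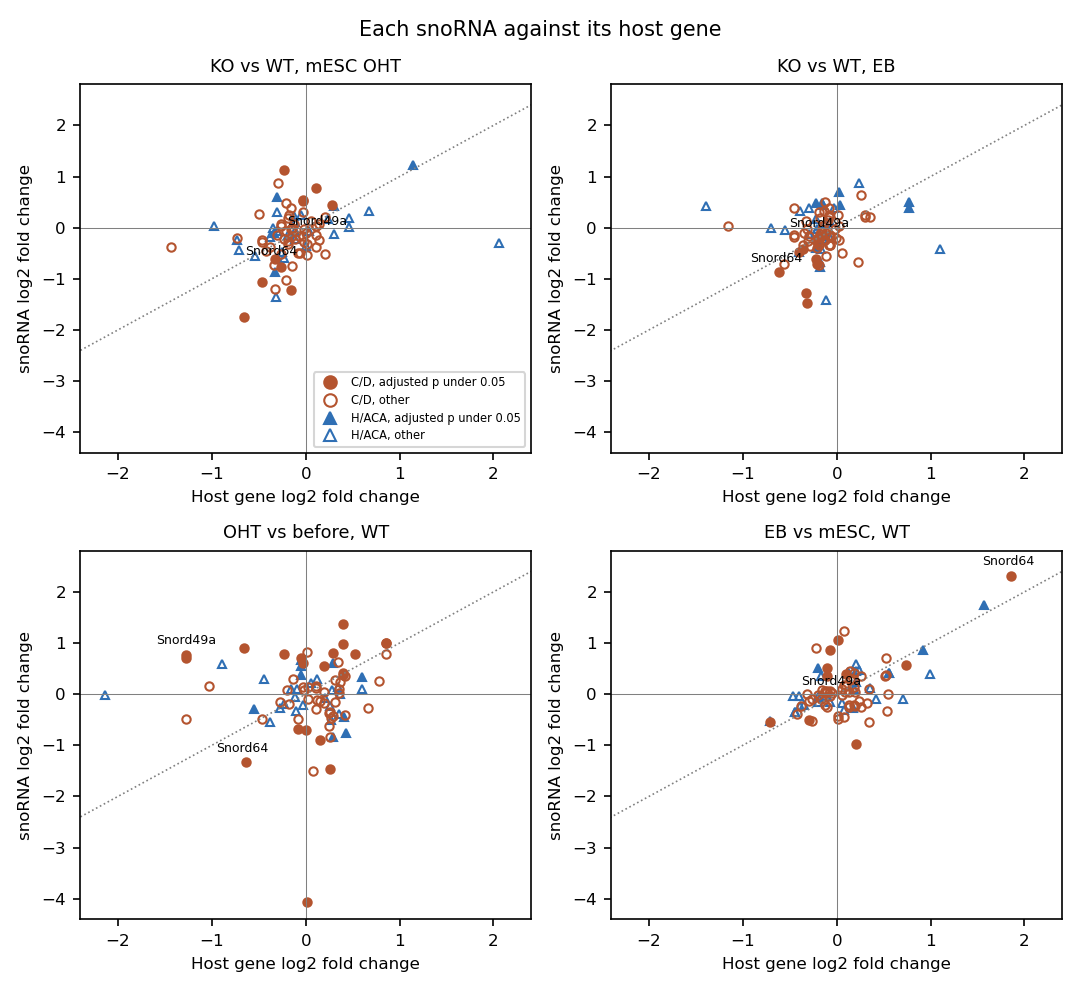
Log2 fold change of each member against that of its host gene, for 89 pairs, in 4 comparisons. Circles are C/D box and triangles H/ACA box members, filled where the adjusted p was under 0.05, and the dotted line marks equal change. Snord64 rises with its host for EB against mESC in WT (2.32 and 1.86), and for OHT in WT Snord49a rises (0.77) where its host falls (-1.28).

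Genes of the snoRNA machinery were counted from lists. Of 24 tested genes of RNA polymerase I and the processome, 20 were called after OHT in WT (median log2 fold change 0.38) and 17 in Rif1F/F lines (median 0.31), all of them higher, led by Imp4 at 0.98 and 0.69, against 24.9% and 22.1% of all genes higher. For KO against WT they gave 3 higher and 9 lower in mESC and 4 and 8 in EB, and before OHT 4 and 5, each against the shares of all genes above. Without the WT mESC library of line 5.3 that stood apart the count after OHT in WT was again 20, and that for KO against WT in mESC was 2 higher and 4 lower. Of 5 proteins of C/D box snoRNAs (Fbl, Nop56, Nop58, Nhp2l1 and Rrp9), 2 were higher and 1 lower after OHT in WT. In Rif1F/F lines 3 were higher and 1 lower. The shares of all genes called in either direction were 49.1% and 43.7%. Nop56, a core scaffold protein, rose by 0.35 (adjusted p = 1.9e-04) and 0.56 (2.7e-06), whereas the methyltransferase Fbl changed by -0.81 (0.00127) and -0.55 (0.0266). Without that library Fbl changed by -0.51 in WT (adjusted p = 0.0290). In EB 4 of these 5 were higher in each genotype, against 32.5% and 31.4% of all genes, and 3 in WT without that library.

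Of 4 H/ACA box core proteins 3 were higher after OHT in each pair of lines, again against 24.9% and 22.1% of all genes, with Nop10 at 0.61 and 0.39. Without the WT mESC library of line 5.3 that stood apart 2 were higher in WT, as the Dkc1 call (0.22) was lost (0.14, adjusted p = 0.143). Dkc1 changed by -0.12 between KO and WT mESC (adjusted p = 0.177). Of 15 assembly factors 8 were higher after OHT in WT, and 8 were higher and 1 lower in Rif1F/F lines, with the chaperone Nolc1 at 0.61 and 0.47, and without that library 9 were higher in WT. A further list of 21 genes tested was mostly of noncoding snoRNA hosts. It also includes Snrpn, Rian and Meg3, none of which holds a member here. Of the 21, 7 were higher and 8 lower for KO against WT in mESC, against 38.4% of all genes called. In EB 1 was higher and 8 lower, against 40.4%. Without that library the mESC count was 5 higher and 6 lower. Snhg1 was lower in all 3 genotype comparisons (-1.25, -1.44 and -1.16), also before OHT, and Meg3, an imprinted gene, was higher before OHT and in mESC after it (2.44 and 2.97). Of 7 small Cajal body RNAs tested, 1 was higher and 1 lower after OHT in WT and 1 and 3 in Rif1F/F lines, and of 7 other short noncoding RNAs 0 and 2 in WT and 1 and 1 in Rif1F/F lines, against 49.1% and 43.7% of all genes called in either direction. The largest fall in each list was that of the Cajal body RNA Scarna2 (-1.96 and -1.20) and that of the telomerase RNA Terc (-1.68 and -0.99), all called, and without the WT library of line 5.3 their values in WT were -1.61 (adjusted p = 2.7e-06) and -1.28 (4.5e-05).

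Base composition was set beside the genotype effects as a description. Across 59 C/D box members, Pearson's r between the GC content of the RNA and the log2 fold change of KO against WT was 0.48 in mESC and 0.35 in EB, and across 30 H/ACA box members it was 0.68 and 0.59. Over 16468 genes with a GC value it was 0.05 and -0.20, and before OHT it was 0.19 and 0.27 for the classes. The members share libraries and hosts, so no p is given. In KO mESC the 5 C/D box members called higher had a median of 51.4% GC, the 5 called lower 43.5% and the others 44.6%. Among those called lower, Snord47 and Snord72 have 35.1% and 29.6% GC but Snord93 has 49.3%. Of those called higher, Snord52 and Snord49b have 43.9% and 44.4% but Snord55 has 63.3%. The H/ACA box RNA Snora78, called higher, has 64.1%. Without the WT mESC library of line 5.3 that stood apart r was 0.43 and 0.58 in mESC, and without the WT EB library of line 5.3 the C/D box value in EB was -0.08. Its part in the genotype comparisons was not tested.

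After OHT the C/D box members called lower had a median GC content of 37.6% in WT and 35.5% in Rif1F/F lines, and those called higher 48.6% and 48.8%. Across 59 C/D box members Pearson's r between GC content and the log2 fold change was -0.07 in WT and 0.15 in Rif1F/F lines. Snord55, called lower in both, has 63.3% GC. Across 30 H/ACA box members r was 0.30 and 0.62, and across 16468 genes it was -0.22 and -0.14. Of the 91 members, 10 shared words of 50 bases with other genes, led by Snord1c at 88.9% of its words and Snora65 at 42%, so reads of these could be split or dropped in counting. Of the members named here, this touches Snora33 (6.25%), Snord58b (35.3%), Snora81 (38.8%), which is among those named by rule, and Snora65.

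**Figure D5:**
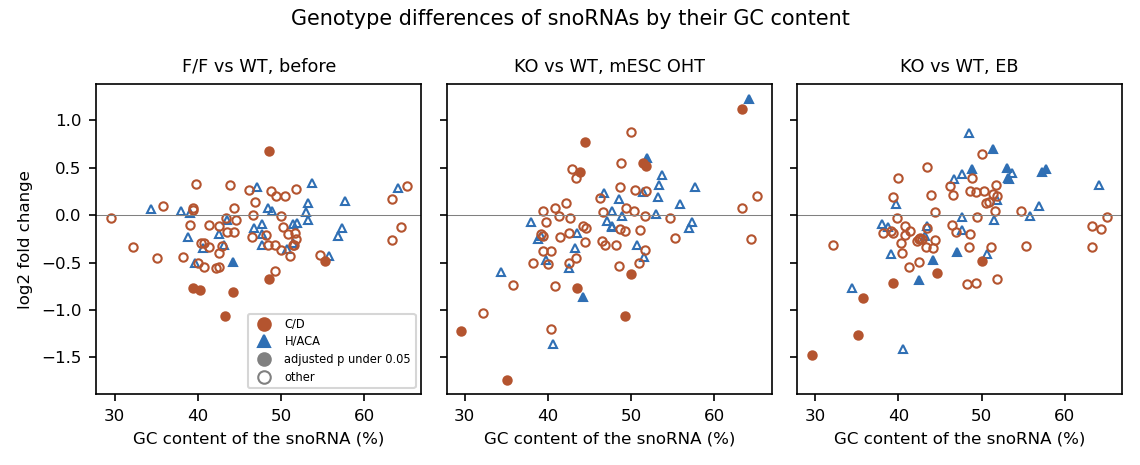
Log2 fold change of KO against WT, in mESC after OHT and in EB, by GC content of the snoRNA in percent, with F/F against WT before OHT beside it. Circles are C/D box and triangles H/ACA box members, filled where the adjusted p was under 0.05. Snord47 and Snord72 lie at low GC and below 0, and Snord55 and Snora78, called higher in mESC, lie at 63.3% and 64.1% GC. Other called members lie between these on both sides of 0. The value of r is 0.48 and 0.68 for the classes in mESC and 0.35 and 0.59 in EB.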

How the data were processed

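Whole-number read counts per gene were deposited by the authors for 12 total RNA libraries, without normalization, per the file headers and the values. The submitters' processing notes name BWA, HTSeq and DESeq2, with no version or role, and the build mm9. The strand setting of the counting and the handling of reads shared by a small nucleolar RNA (snoRNA) and a host exon are not given in the sources used here. Per the labels' protocols, RNA was extracted on RNeasy columns with DNase treatment.

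The snoRNA genes, the gene lists and the alternatives were chosen with earlier results of these data known, so no pattern here is independent support for those results. Tests used the quasi-likelihood F test of edgeR 4.0.16 (R 4.3.3) on a group means model of all 12 libraries, after TMM scaling and filterByExpr, with p-values adjusted by Benjamini-Hochberg over the 17115 genes that passed and called at 0.05. Of 91 members 90 passed the filter, and Snora34 did not. The common dispersion had a square root of 0.0717, with 11 prior degrees of freedom. SE is the absolute log2 fold change divided by the square root of F. CPM is the deposited count over the TMM effective library size, and library totals of 28600870 to 64808897 set its precision. Comparisons share groups and are not independent of each other.

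Hosts were GENCODE vM21 genes of GRCm38 whose span on the same strand holds the snoRNA. For 4 members the host came from RefSeq spans, for which no strand was listed. Hosts were matched by symbol, and only genes present in the deposited counts were taken. The sequence and the host gene of 1 member that is described by its levels are not reported here. Named members were those of a list of well-known snoRNAs, the 5 most abundant of each class, and up to 6 (genotype comparisons) or 4 (other comparisons) per direction with the largest log2 fold change among called members whose mean log2 CPM was at least 0 and, for group comparisons, whose libraries did not overlap, 42 in all. Members named outside this rule were chosen after their values were seen. Replicates 1 to 4 are the 4 lines, so numbers pair libraries across conditions by cell line. The deviations of same-line libraries from their group means correlated at -0.07 to 0.09. Alternatives were other scalings, no filter, DESeq2 1.42.0, the groups compared alone, line as a replicate block and each library left out. The scripts were tested on simulated data.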

Additional observations from a re-analysis of the deposited data

Results flagged for a closer look

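For 3 members the genotype effect itself differed between conditions by the edgeR test of that difference, adjusted over all genes. For Snord104 the effect after OHT exceeded that before OHT by 0.87 on the log2 scale (adjusted p = 0.0256), and both KO libraries lay above both WT libraries after OHT but not before it. For Snora17 the effect in EB exceeded that in mESC after OHT by 0.48 (adjusted p = 0.0207), with KO above WT in 2 of 2 EB libraries. For Snord49b it differed by -1.03 (adjusted p = 0.0138), with KO above WT in mESC and below WT in EB. None of the 3 calls held in every fit that left out 1 library.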

How the results depend on the processing

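The count of members called moved by over 1.5 times under the processing settings given next and in some fits that left out 1 library. KO against WT in EB gave 16, against 25 with only the groups compared and 9 with DESeq2. The difference of the genotype effects between after and before OHT gave 1, against 5 with no filter and 2 with line as a replicate block, and that between EB and mESC gave 2, against 7 with no filter. Leaving out 1 library at a time gave 4 to 9 for F/F against WT (8 with all), 8 to 20 for KO against WT in mESC (13), 1 to 17 in EB (16), 19 to 32 for OHT in WT (30), 18 to 24 in Rif1F/F lines (27), 14 to 18 for EB against mESC in WT (16) and 10 to 16 in KO (19). For the differences of genotype effects it gave 0 to 4 after against before OHT and 0 to 7 for EB against mESC.

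Of 132 single calls none changed sign under any setting run. DESeq2 ended 28, library totals 14, upper-quartile factors 9, no filter 4 and RLE factors 3, the groups compared alone 12 of 129 and the replicate block 2 of 95 (Snord91a for OHT and Snord99 for EB, both in Rif1F/F lines). Of 540 fits of a call that left out 1 library, 352 kept it. No paired analysis was possible for the genotype comparisons because the genotypes share no line. The cause of these shifts was not tested. Low counts limit Snord55, Snord70 and Snord72, with as few as 15, 6 and 12 counts in a library.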
